A study of Homo sapiens with 18 samples.

Results

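The ErbB family and its ligands were followed as 10 genes, 3 receptors (EGFR, ERBB2 and ERBB3) and 7 ligands (AREG, EREG, HBEGF, TGFA, BTC, EPGN and NRG1), chosen by name from the 58302 genes listed for 3 lung cancer cell lines. RNA came from EBC-1 cells, which carry a MET amplification, and from PC-9 and HCC827 cells, which carry an activating EGFR exon 19 deletion. Each line was compared between cells with a stable, lentiviral shRNA against SYK (shSYK) and negative control cells (nc), and each of the 6 groups held 3 libraries. A single shRNA was used, so that a change shared by the 3 lines cannot be told apart from an effect of this shRNA on other transcripts. No source states whether the knockdown cells of a line were a pool or a clone, or that the 3 libraries of a group came from separate cultures, so p-values measure only the spread between these libraries, which may be technical.

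ErbB receptors are receptor tyrosine kinases that act as pairs. EGFR is activated by EGF, AREG, EREG, HBEGF, TGFA, BTC and EPGN, ERBB2 binds no ligand and serves as a partner, and ERBB3 binds neuregulins such as NRG1 but has a weak kinase and signals through its partner. The ligands are made as membrane proteins and are released by proteases of the ADAM family, and in lung cancer EGFR is known as a driver kinase, while ERBB3 and its ligands are known from resistance to kinase inhibitors.

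Between 7920099 and 15729103 reads per library lay on genes (median 11651793), recovered from the FPKM values as described in the methods. Read numbers given here cover counting error only. SYK, the targeted gene, was at 15.1, 13.1 and 14.4 FPKM in nc and 7.63, 7.25 and 7.41 FPKM in shSYK in EBC-1. It was at 7.31, 6.04 and 6.17 FPKM against 2.28, 1.64 and 2.34 FPKM in PC-9, and at 9.05, 8.45 and 9.74 FPKM against 2.46, 3.16 and 3.36 FPKM in HCC827. Each shSYK library was thus below each nc library of its line, at 52.3%, 32.1% and 32.9% of the nc mean (limma adjusted p = 0.000271, 0.00733 and 0.000197), and the PC-9 call was lost without shSYK replicate 1 (limma adjusted p = 0.0648). PC-9 nc replicates 1 and 2 stood apart from their group, with a median absolute log2 difference of 0.304 and 0.268 from the mean of the other 2 libraries, against 0.0798 to 0.164 in the other 16. The 5 epithelial markers EPCAM, KRT8, KRT18, KRT19 and CDH1 were at 31.0 FPKM or more in every library, and the leukocyte markers PTPRC, CD3E and CD68 at no more than 14 reads. Of the endothelial markers, PECAM1 reached 14.4 FPKM and CDH5 2.57 FPKM, VWF had at most 20 reads, and the sum of the 3 lay at 15.0 to 17.0 FPKM in PC-9 nc, 6.62 to 7.91 FPKM in PC-9 shSYK and at most 0.235 FPKM in the other lines. COL1A1 was at 0.945 to 8.29 FPKM while the fibroblast markers COL1A2 and DCN had at most 6 reads and 1 read.

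The stretches of genome before the start of EGFR, AREG, EREG and HBEGF are given because these genes carry the main contrasts below. EGFR was the most abundant receptor in PC-9 and HCC827. AREG fell in EBC-1, where its neighbour EREG was called only with length and GC trends removed, and the difference between them was not tested. HBEGF was the one ligand that passed the test in all 3 lines. They are RefSeq sequences of GRCh38.p14, read 5′ to 3′ on the strand of the gene and ending before the start of the RefSeq transcript, with annotated exon bases left out. Capitals mark matches on either strand to 3 motifs, the GC box (GGGCGG), the AP-1 site (TGANTCA) and the cAMP response element (TGACGTCA). The printed intervals are chr7:55018767-55019016 on the plus strand for EGFR, chr4:74444886-74445133 on the plus strand for AREG, chr4:74364895-74365142 on the plus strand for EREG and chr5:140346632-140346853 on the minus strand for HBEGF.
EGFR: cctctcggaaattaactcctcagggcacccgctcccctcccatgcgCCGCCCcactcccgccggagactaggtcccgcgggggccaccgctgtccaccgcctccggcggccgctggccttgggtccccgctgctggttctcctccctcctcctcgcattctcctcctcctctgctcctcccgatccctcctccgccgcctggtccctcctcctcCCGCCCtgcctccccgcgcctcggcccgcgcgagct
AREG: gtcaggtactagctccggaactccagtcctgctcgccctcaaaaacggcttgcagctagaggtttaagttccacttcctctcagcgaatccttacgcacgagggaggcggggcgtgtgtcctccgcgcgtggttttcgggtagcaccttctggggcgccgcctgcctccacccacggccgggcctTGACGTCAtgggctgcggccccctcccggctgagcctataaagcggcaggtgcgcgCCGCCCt
EREG: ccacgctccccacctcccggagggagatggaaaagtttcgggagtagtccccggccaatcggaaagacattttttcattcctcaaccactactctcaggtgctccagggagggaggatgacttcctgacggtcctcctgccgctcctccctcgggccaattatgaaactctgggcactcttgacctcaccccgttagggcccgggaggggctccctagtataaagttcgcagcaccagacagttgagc
HBEGF: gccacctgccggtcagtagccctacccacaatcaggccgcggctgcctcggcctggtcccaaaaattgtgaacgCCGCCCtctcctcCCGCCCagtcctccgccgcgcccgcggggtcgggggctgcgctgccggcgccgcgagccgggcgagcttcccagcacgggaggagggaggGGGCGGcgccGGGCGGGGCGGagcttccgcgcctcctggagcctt

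A window of 250 bases before the start of the RefSeq transcript was searched in the 8 genes with a RefSeq entry (ERBB3 and NRG1 were not matched). Distances are counted from that start. For ERBB2 and BTC most of the window, and for TGFA all of it, lay inside the gene at its listed hg38 position. EGFR held GC boxes 204 and 36 bases before its start. AREG held a cAMP response element 65 bases and a GC box 9 bases before its start, and HBEGF held 5 GC boxes, 176, 163, 73, 63 and 58 bases before its start, of which the last 2 overlap by 1 base. TGFA held 3 GC boxes and ERBB2 an AP-1 match 222 bases before its start, and EREG, BTC and EPGN held none of the 3 motifs. Among all 35116 windows of the same length, 42.6% held a GC box, 6.57% an AP-1 match and 1.65% a cAMP response element, and a match of letters shows neither binding nor use of a site.

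The nc libraries differed widely in their receptors and ligands. FPKM is a level per length of gene, so that genes can be compared within a line, whereas the 3 lines were deposited as separate tables and their levels are set side by side without a test. EGFR (ENSG00000146648, chromosome 7) was lowest in EBC-1, at 15.0, 17.4 and 13.8 FPKM. It was at 60.9, 87.1 and 69.1 FPKM in PC-9 and at 296, 304 and 251 FPKM in HCC827, so that the 3 lines did not overlap. ERBB2 (ENSG00000141736, chromosome 17) was alike in level, with means of 18.9, 22.2 and 25.8 FPKM in EBC-1, PC-9 and HCC827 and overlapping ranges between neighbours. ERBB3 (ENSG00000065361, chromosome 12) was highest in PC-9 (mean 17.2 FPKM), followed by HCC827 (13.7 FPKM) and EBC-1 (4.93 FPKM), without overlap.

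Ligand levels followed another order. AREG (amphiregulin, ENSG00000109321) had a mean of 120 FPKM in HCC827 nc, 82.1 FPKM in EBC-1 nc and 0.887 FPKM in PC-9 nc, the last from 13 to 16 reads per library. EREG (epiregulin, ENSG00000124882) was at 46.9, 40.6 and 0.331 FPKM in the same order, and NRG1 (neuregulin 1, ENSG00000157168, chromosome 8) at 1.85, 1.04 and 0.0160 FPKM. These 3 ligands were thus near or below 1 FPKM in PC-9 nc, where NRG1 had 1 to 3 reads per library. HBEGF (heparin-binding EGF-like growth factor, ENSG00000113070, chromosome 5) had another order, with 45.7 FPKM in EBC-1, 7.01 FPKM in PC-9 and 1.86 FPKM in HCC827. TGFA (transforming growth factor alpha, ENSG00000163235, chromosome 2) was within narrower bounds, at 13.5, 11.02 and 8.05 FPKM in EBC-1, PC-9 and HCC827, and BTC (betacellulin, ENSG00000174808) was at 2.07, 1.22 and 6.33 FPKM. Of 20 pairs of neighbours in these orders, 15 did not overlap, the exceptions being both pairs of ERBB2, both of EPGN and the HCC827 and EBC-1 levels of EREG. After rescaling to TPM, 14 pairs did not overlap, AREG of HCC827 and EBC-1 then overlapped, and the means of EREG in these 2 lines changed places. EPGN (epigen, ENSG00000182585) had at most 5 reads in any library.

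**Figure D1:**
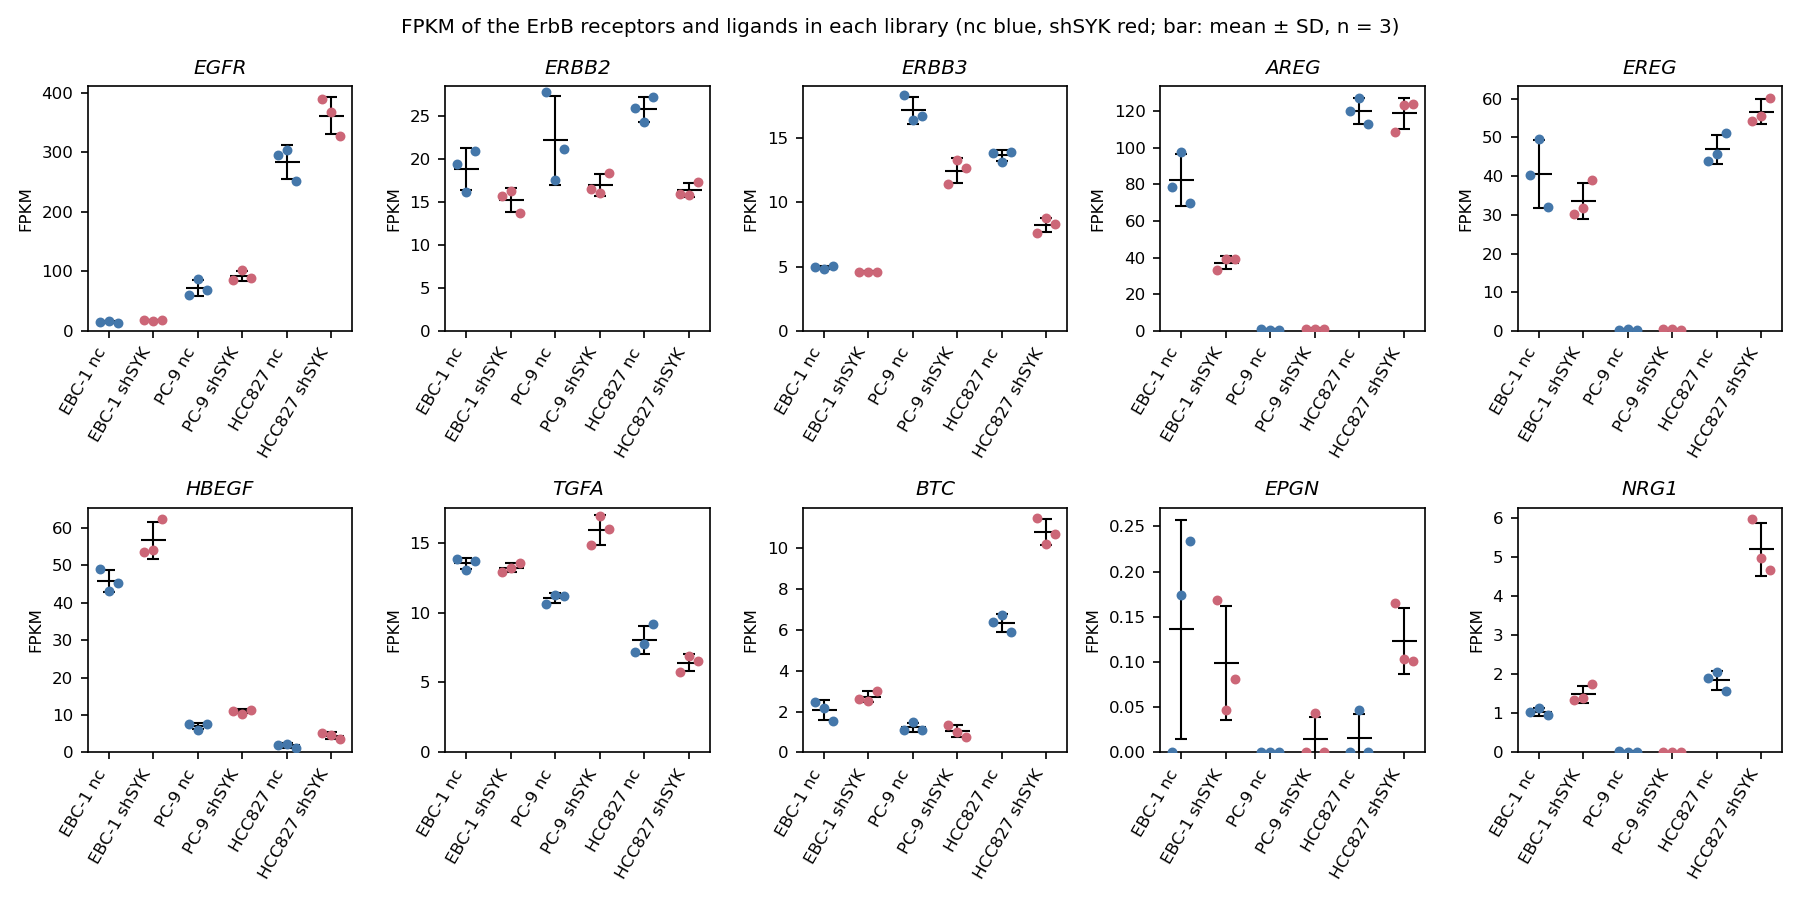
FPKM of the 10 genes in each library, with a panel and an FPKM axis of its own for each gene, nc libraries in blue, shSYK libraries in red, and the mean with its SD over 3 libraries in black. EGFR is at 251 to 389 FPKM in HCC827, AREG and EREG are near 0 in PC-9, and the red points of HBEGF lie above the blue points in each line.

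The receptors were compared between shSYK and nc in each line on log2(FPKM + 1) with limma over all genes whose mean FPKM reached 1, a scale that understates the change of low genes, and genes with an adjusted p under 0.05 were called. In bulk RNA, fewer cells that express a gene cannot be told apart from less of its RNA per cell. All 3 receptors changed in HCC827, where EGFR rose and both partners fell. EGFR went from 296, 304 and 251 FPKM in nc to 389, 368 and 328 FPKM in shSYK, a log2 change of 0.35 with an SE of 0.0951 (limma adjusted p = 0.0237). ERBB2 went from 25.9, 24.3 and 27.2 FPKM to 15.9, 15.9 and 17.3 FPKM, a log2 change of -0.62 with an SE of 0.0636 (limma adjusted p = 0.000571). ERBB3 went from 13.9, 13.1 and 13.9 FPKM to 7.62, 8.75 and 8.33 FPKM, a log2 change of -0.67 with an SE of 0.0643 (limma adjusted p = 0.000464). For each of the 3 receptors, no shSYK library of HCC827 overlapped the nc libraries. The call for EGFR was the least firm of the 3, since it was lost without nc replicate 3, without shSYK replicate 1 or 2 and without the filter on low genes (limma adjusted p = 0.0554, 0.0665, 0.0728 and 0.0862).

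No receptor passed the threshold in PC-9 or EBC-1. In PC-9, ERBB3 was at 18.4, 16.4 and 16.7 FPKM in nc and 11.4, 13.3 and 12.7 FPKM in shSYK, a log2 change of -0.43 with an SE of 0.102 (limma adjusted p = 0.0885), and the groups did not overlap. It was past the threshold in 4 of 14 alternatives, among them TPM and limma-voom on the recovered reads (limma adjusted p = 0.0367 and 0.0297). EGFR in PC-9 was at 60.9, 87.1 and 69.1 FPKM in nc and 85.5, 102 and 89.3 FPKM in shSYK, where nc replicate 2 lay above the lowest shSYK library (log2 fold change 0.36, 95% interval -0.0037 to 0.72, limma adjusted p = 0.326). Its log2 fold change was 0.24 without nc replicate 1 and 0.50 without nc replicate 2, the libraries that stood apart. ERBB2 in PC-9 was at 27.8, 17.6 and 21.2 FPKM in nc and 16.5, 16.0 and 18.4 FPKM in shSYK, overlapping in the same way (log2 fold change -0.34, 95% interval -0.73 to 0.042, limma adjusted p = 0.374).

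In EBC-1, EGFR was at 15.0, 17.4 and 13.8 FPKM in nc and 18.1, 17.5 and 18.3 FPKM in shSYK, a log2 change of 0.21 (95% interval 0.0077 to 0.42, limma adjusted p = 0.0848). The highest nc library reached to just under the lowest shSYK library. This value depends on the scale of the libraries, since TPM moved the median log2 fold change of all genes in EBC-1 from 0.0090 to 0.13, and EGFR then stood at 0.35 in log2 units (limma adjusted p = 0.0262). It stood at 0.060 once each library was freed of trends with gene length and GC (limma adjusted p = 0.455). ERBB2 had a log2 change of -0.29 (95% interval -0.54 to -0.034, limma adjusted p = 0.0647), with nc libraries at 19.4, 16.2 and 21.0 FPKM and shSYK libraries at 15.7, 16.3 and 13.7 FPKM, which overlap. Without nc replicate 2, which stood nearest to the shSYK libraries in both genes, EGFR and ERBB2 passed the threshold (limma adjusted p = 0.0107 and 0.0134). ERBB3 differed by -0.083 (95% interval -0.23 to 0.068, limma adjusted p = 0.327), and by 0.029 on the TPM scale.

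**Figure D2:**
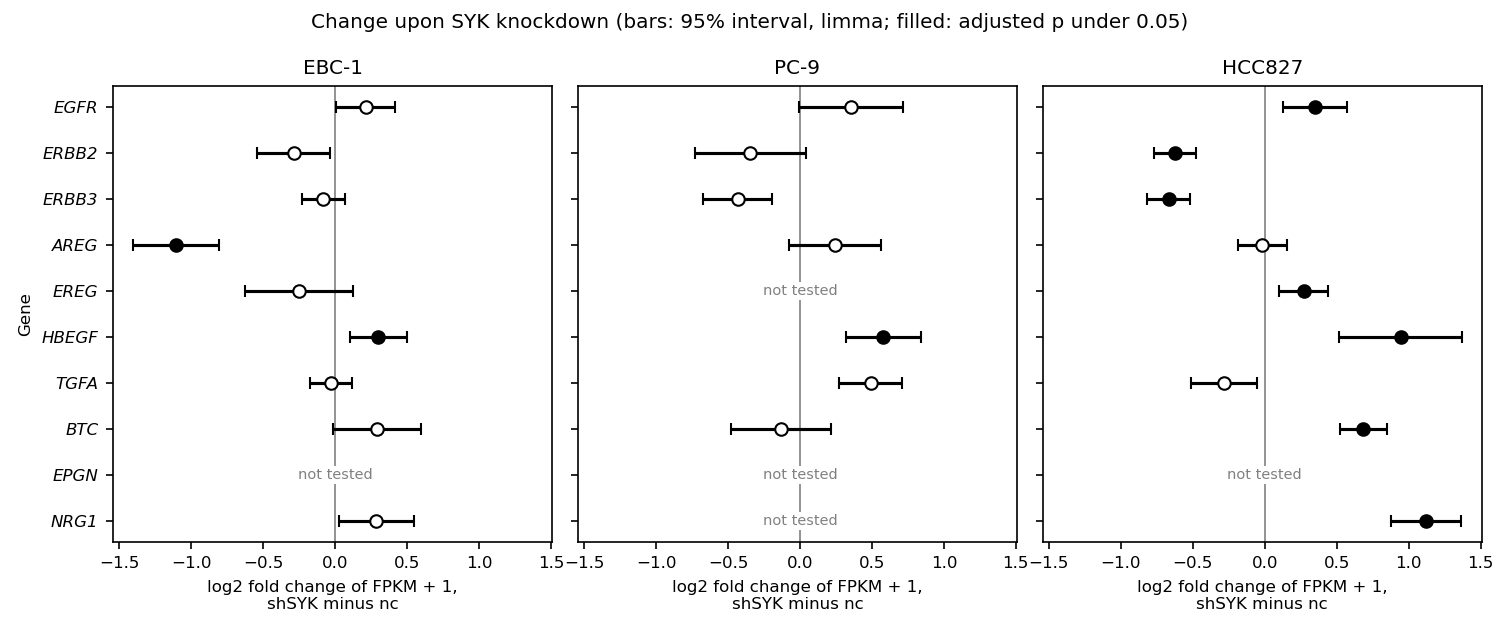
Log2 fold change of FPKM + 1, shSYK minus nc, of each gene in each cell line, with bars for the 95% interval from limma and filled points for an adjusted p under 0.05 over all genes. In HCC827, 7 of 9 points are filled, in EBC-1 2 of 9, AREG and HBEGF, and in PC-9 1 of 7, HBEGF. Of all genes tested, 38.0% were called in HCC827, 44.7% in EBC-1 and 2.09% in PC-9.

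The proportions of the receptors to each other were compared within each library. The ratio of EGFR to ERBB3 in FPKM was 3.02, 3.63 and 2.75 in the nc libraries and 3.92, 3.83 and 3.95 in the shSYK libraries of EBC-1. In PC-9 it was 3.32, 5.30 and 4.13 in nc and 7.47, 7.64 and 7.05 in shSYK. In HCC827 it was 21.3, 23.1 and 18.03 in nc and 51.1, 42.0 and 39.4 in shSYK. The shSYK ratios lay above the nc ratios in every line, narrowly in EBC-1. Being ratios within a library they do not depend on its scale, but they do carry its trends with gene length and GC. With these trends removed, the log2 fold change in EBC-1 was 0.060 for EGFR and -0.077 for ERBB3, against 0.21 and -0.083 as deposited. The ratios to ERBB3 in PC-9 nc alone spanned 3.32 to 5.30. The ratio of EGFR to ERBB2 also lay higher without overlap in HCC827 (9.25 to 12.5 in nc, 18.9 to 24.5 in shSYK), whereas in PC-9 (2.19 to 4.96 and 4.85 to 6.34) the groups overlapped, and in EBC-1 (0.660 to 1.072 and 1.073 to 1.33) they met. EGFR made up 87.7% ± 1.60 (SD, n = 3) of the summed receptor FPKM in HCC827 nc and 93.6% ± 0.790 in shSYK. These ratios were formed with the receptor values known and carry no test.

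**Figure D3:**
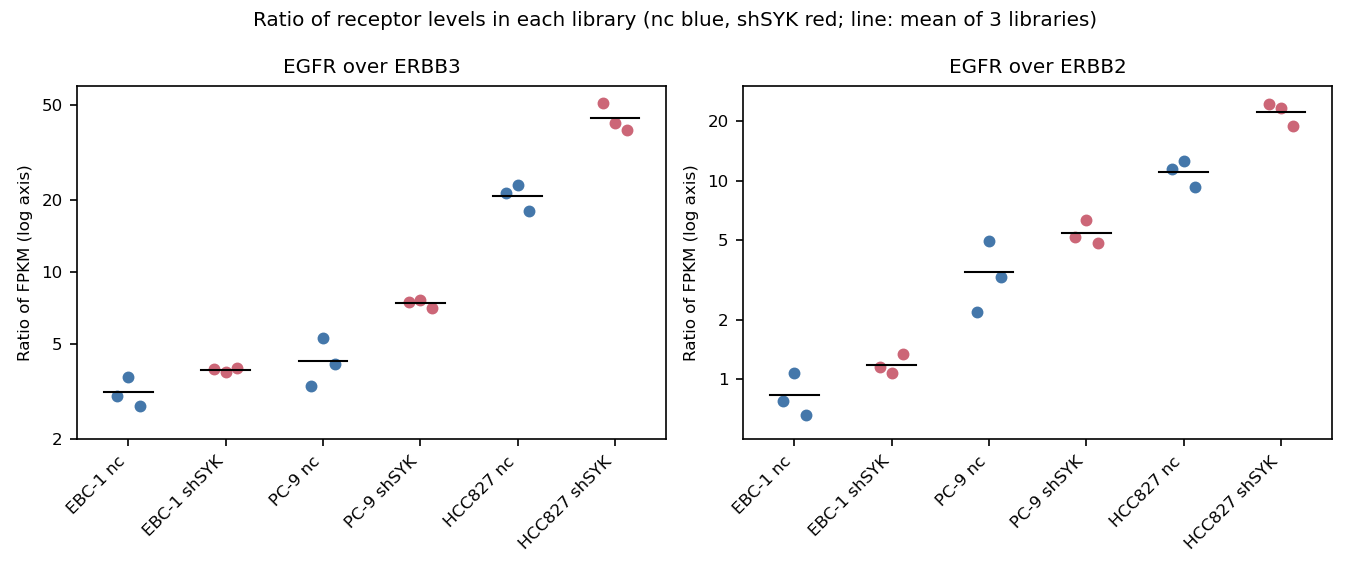
Ratio of EGFR to ERBB3 (left) and of EGFR to ERBB2 (right) in FPKM on log axes, a point for each library, nc in blue, shSYK in red, and a line at the mean of 3 libraries. The ratio to ERBB3 goes from a mean of 20.8 to 44.2 in HCC827, from 4.25 to 7.39 in PC-9 and from 3.13 to 3.90 in EBC-1.

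HBEGF, which binds EGFR and ERBB4 and heparan sulfate, rose in all 3 lines. In EBC-1 it went from 49.0, 43.0 and 45.3 FPKM in nc to 53.4, 54.0 and 62.3 FPKM in shSYK, a log2 change of 0.30 with an SE of 0.0849 (limma adjusted p = 0.0243). The PC-9 libraries moved from 7.49, 6.01 and 7.53 FPKM to 11.01, 10.4 and 11.4 FPKM, a log2 change of 0.58 with an SE of 0.111 (limma adjusted p = 0.0489). The HCC827 libraries moved from 2.06, 2.34 and 1.17 FPKM, on 38 to 83 reads, to 5.24, 4.61 and 3.52 FPKM, on 116 to 158 reads, a log2 change of 0.94 with an SE of 0.183 (limma adjusted p = 0.00651). The groups did not overlap in any line. The HCC827 call held in all 13 alternatives with a value. The EBC-1 call held in 9 of 14 (limma adjusted p from 0.00316 to 0.106) and was lost without nc replicate 3 or shSYK replicate 3 (limma adjusted p = 0.0709 and 0.0554). The PC-9 call held in 7 of 14 alternatives (limma adjusted p from 0.00623 to 0.236). It was lost without nc replicate 3 or shSYK replicate 1, 2 or 3 (limma adjusted p = 0.186, 0.236, 0.188 and 0.231), and held without nc replicate 1 or 2 (limma adjusted p = 0.0223 and 0.0388). The endothelial marker sum was lower in the same PC-9 shSYK libraries, mainly through PECAM1. PECAM1 had a mean of 13.4 FPKM in PC-9 nc and 4.98 FPKM in PC-9 shSYK (limma adjusted p = 0.00492). CDH5, of the same list, was at 2.42 and 2.38 FPKM (limma adjusted p = 0.965). The part of the lower sum in the PC-9 values was not tested.

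AREG, an EGFR ligand of low affinity that is abundant in many carcinomas, fell in EBC-1 to 45.4% of its nc level. It was at 78.7, 97.7 and 69.9 FPKM in nc and at 33.4, 39.1 and 39.4 FPKM in shSYK, with all shSYK libraries far below the nc libraries, and the log2 change was -1.11 with an SE of 0.128 (limma adjusted p = 0.000761). This call held in all 14 alternatives, with log2 fold changes from -1.22 to -0.98. In HCC827, where AREG was at 120, 127 and 113 FPKM in nc and 109, 123 and 124 FPKM in shSYK, the groups overlapped and the log2 fold change was -0.016 (95% interval -0.19 to 0.15, limma adjusted p = 0.879), or 0.045 on the TPM scale. In PC-9 it was at 1.17, 0.731 and 0.757 FPKM in nc and 1.11, 1.25 and 1.32 FPKM in shSYK, from 13 to 26 reads (log2 fold change 0.24, 95% interval -0.075 to 0.56, limma adjusted p = 0.451), and it passed the filter of 1 FPKM through the shSYK libraries.

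EREG, which binds EGFR and ERBB4, rose in HCC827 from 43.9, 45.8 and 51.0 FPKM to 54.3, 55.6 and 60.3 FPKM without overlap (log2 fold change 0.27 with an SE of 0.0722, limma adjusted p = 0.0225). That call held in 7 of 14 alternatives. It was lost without nc replicate 1 or 2 or shSYK replicate 2 or 3 (limma adjusted p = 0.0796, 0.0604, 0.0534 and 0.0769), and with the length and GC trends of a library removed the log2 fold change was 0.11 (limma adjusted p = 0.251). EREG in EBC-1 was at 40.3, 49.6 and 32.0 FPKM in nc and 30.1, 31.9 and 38.9 FPKM in shSYK, which overlap (log2 fold change -0.25, 95% interval -0.63 to 0.13, limma adjusted p = 0.240). With these trends removed, the log2 fold change of EREG in EBC-1 was -0.65, past the threshold (limma adjusted p = 0.00358). EREG was not tested in PC-9, where it had 7 to 39 reads per library.

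TGFA, an EGFR ligand made by many epithelial cells, passed the threshold in no line. It was at 10.6, 11.3 and 11.2 FPKM in PC-9 nc and 14.8, 16.9 and 16.0 FPKM in PC-9 shSYK, which do not overlap (log2 fold change 0.49 with an SE of 0.0951, limma adjusted p = 0.0507). Without nc replicate 1 or without nc replicate 2 it was past the threshold (limma adjusted p = 0.0308 and 0.0417). It was not without nc replicate 3 or shSYK replicate 1, 2 or 3 (limma adjusted p = 0.234, 0.184, 0.252 and 0.241). Of 14 alternatives, 5 passed. In HCC827 the difference had the other sign, from 7.19, 7.77 and 9.18 FPKM in nc to 5.75, 6.92 and 6.57 FPKM in shSYK, again without overlap (log2 fold change -0.29 with an SE of 0.0983, limma adjusted p = 0.0541), and 6 of 14 alternatives passed. In EBC-1 TGFA was between 12.9 and 13.8 FPKM in all 6 libraries (log2 fold change -0.029, 95% interval -0.17 to 0.11, limma adjusted p = 0.721), and 0.097 on the TPM scale.

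BTC, which binds EGFR and ERBB4, rose in HCC827 from 6.39, 6.74 and 5.87 FPKM to 11.4, 10.2 and 10.7 FPKM without overlap (log2 fold change 0.68 with an SE of 0.0700, limma adjusted p = 0.000573). It was at 2.47, 2.19 and 1.54 FPKM in EBC-1 nc and 2.63, 2.52 and 3.03 FPKM in shSYK, on 51 to 121 reads (log2 fold change 0.29, 95% interval -0.015 to 0.60, limma adjusted p = 0.108). In PC-9, at 0.770 to 1.47 FPKM, the groups overlapped (log2 fold change -0.13, 95% interval -0.48 to 0.22, limma adjusted p = 0.747).

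NRG1, the ligand of ERBB3 among the 7, had the largest log2 fold change of the members in HCC827. It rose from 1.92, 2.06 and 1.58 FPKM, on 157 to 274 reads, to 5.98, 4.98 and 4.67 FPKM, on 578 to 677 reads, with a wide gap between the groups (log2 fold change 1.12 with an SE of 0.105, limma adjusted p = 0.000423). NRG1 thus rose in the line in which ERBB3, its receptor, fell. In EBC-1 it was at 1.02, 1.15 and 0.950 FPKM in nc and 1.34, 1.40 and 1.75 FPKM in shSYK, without overlap (log2 fold change 0.29, 95% interval 0.025 to 0.55, limma adjusted p = 0.0720). The EBC-1 difference was past the threshold on the TPM scale (limma adjusted p = 0.0433) and turned to -0.092 with the length and GC trends of a library removed. NRG1 in PC-9, at 0 to 3 reads, and EPGN, at 0 to 5 reads in the 3 lines, were not tested. EPGN had 0, 1 and 0 reads in HCC827 nc and 3, 2 and 2 reads in HCC827 shSYK, at or under a floor of 3 reads.

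Counted together, 2 of the 9 members tested in EBC-1 were called, against 44.7% of all genes tested in that line, with 1 rising (23.1% of all genes) and 1 falling (21.6%). In PC-9 it was 1 of 7 members against 2.09% of all genes, and it rose (0.678%). In HCC827 it was 7 of 9 against 38.0%, of which 5 rose (17.2%) and 2 fell (20.7%). The groups did not overlap for 6 of 9 members in EBC-1 (56.9% of all genes), 3 of 7 in PC-9 (23.7%) and 8 of 9 in HCC827 (52.3%). The median log2 fold change of the members tested was -0.029 in EBC-1 and 0.27 in HCC827, and that of all genes 0.0090 and -0.0053. Each member median is the value of a single gene that moves with the processing. In EBC-1 this was TGFA, at 0.097 on the TPM scale. In HCC827 it was EREG, at 0.11 with length and GC trends removed. In PC-9 the middle member was AREG itself, which passed the filter through its shSYK libraries, so that no median is read there. Among all genes, the split of calls into higher and lower depends on the scale, with 2876 and 2686 in EBC-1 as deposited but 4001 and 1891 after TPM rescaling, 82 and 171 against 122 and 358 in PC-9, and 2066 and 2488 against 2471 and 1900 in HCC827.

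The share of each ligand was formed in the same way. In EBC-1, AREG led the summed FPKM of the 7 ligands in all nc libraries with 42.5% to 47.2%, and HBEGF led in all shSYK libraries with 38.0% to 39.9%, when AREG held 24.8% to 27.5%. The ratio of AREG to EREG, neighbours on chromosome 4, was 1.95 to 2.19 in EBC-1 nc and 1.012 to 1.23 in EBC-1 shSYK. It carries the trends of a library with gene length and GC. With these removed, the log2 fold change in EBC-1 was -1.10 for AREG and -0.65 for EREG, against -1.11 and -0.25 as deposited. The summed ligand FPKM in EBC-1 was 163 to 207 in nc and 134 to 159 in shSYK. In PC-9, TGFA led in all libraries, with 53.8% on average in both groups and HBEGF next, while the sum went from 20.03 to 20.9 FPKM in nc to 28.7 to 30.1 FPKM in shSYK. HCC827 was led by AREG throughout, at 64.8% ± 2.31 (SD, n = 3) in nc and 58.6% ± 1.65 in shSYK, and the shares of BTC (3.42% and 5.34%) and NRG1 (1.001% and 2.59%) were small in both groups. These shares are descriptions of levels whose genes are tested singly above.

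**Figure D4:**
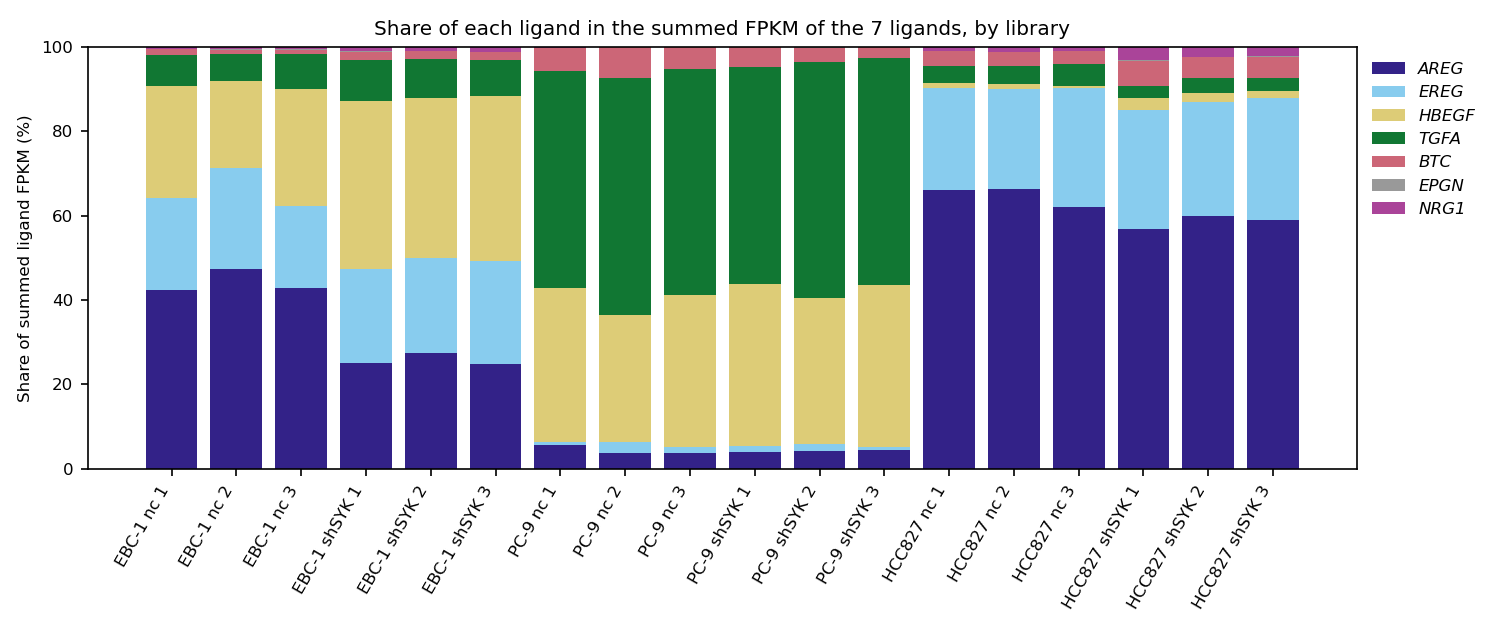
Share of each ligand in the summed FPKM of the 7 ligands, in percent, with a bar for each of the 18 libraries. HBEGF takes the place of AREG as the leading ligand in the 3 EBC-1 shSYK libraries, TGFA leads in PC-9 and AREG in HCC827.

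The effects of the knockdown were compared between lines as differences of log2 fold changes in a limma fit of all 18 libraries, adjusted over 14636 genes for each pair of lines, and are given for genes tested within both lines of a pair. EREG and NRG1, both under the filter in PC-9, are thus compared between EBC-1 and HCC827 alone. This fit gives each gene a single variance over the 3 lines, although PC-9 nc replicates 1 and 2 stood apart. ERBB3 and TGFA were not called within PC-9 (limma adjusted p = 0.0885 and 0.0507). With all 18 libraries fitted together, both passed in PC-9 (limma adjusted p = 0.000614 and 0.000929), so their differences from PC-9 rest on the pooled variance. Of 23 differences, 9 passed. Between EBC-1 and PC-9 these were 3 of 7 (19.4% of all genes tested in both), AREG (-1.35), TGFA (-0.52) and ERBB3 (0.35). Between EBC-1 and HCC827 they were 4 of 9 (20.7%), AREG (-1.09), NRG1 (-0.83), HBEGF (-0.65) and ERBB3 (0.58), and between PC-9 and HCC827 2 of 7 (6.43%), BTC (-0.82) and TGFA (0.78). The HBEGF difference was the least firm, lost in 7 of 18 fits without a library (limma adjusted p up to 0.0959). The ERBB3 difference between EBC-1 and PC-9 was lost without PC-9 shSYK replicate 1 (limma adjusted p = 0.0514), and that of TGFA between these lines with TPM (limma adjusted p = 0.0547). The fall of AREG in EBC-1 thus differed from its value in HCC827 (limma adjusted p = 0.000225). The AREG difference from PC-9 (limma adjusted p = 4.96e-05) rests on 13 to 26 reads per PC-9 library. AREG passed the filter in PC-9 through its shSYK libraries, so no support is drawn from that difference. The counts of 7 members compared with PC-9 include AREG. The rise of NRG1 in HCC827 differed from its value in EBC-1 (limma adjusted p = 0.000313). No difference passed for EGFR, with 95% intervals from -0.51 to 0.22 for EBC-1 minus PC-9, -0.50 to 0.23 for EBC-1 minus HCC827 and -0.36 to 0.37 for PC-9 minus HCC827. Nor did a difference pass for ERBB2, the widest being EBC-1 minus HCC827 at 0.34 (95% interval -0.052 to 0.73). The fall of SYK itself was smaller in EBC-1 than in HCC827 by 0.49 in log2 units, a difference past the threshold (limma adjusted p = 0.0296), and the part of this in the other differences was not tested.

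AREG, EREG, EPGN and BTC lie together on chromosome 4, in a span of 486.214 kb of the tables' hg38 positions, from EPGN (chromosome 4, 74308473 to 74315307) over EREG (74365143 to 74388751) and AREG (74445134 to 74455009) to BTC (74744759 to 74794686). EREG and AREG are separated by 56.382 kb and AREG and BTC by 289.749 kb. In EBC-1 the 3 tested ligands of this span had log2 fold changes of -0.25, -1.11 and 0.29, and in HCC827 of 0.27, -0.016 and 0.68, so that AREG alone was called in EBC-1, and EREG and BTC but not AREG in HCC827. With length and GC trends removed, EREG was called in EBC-1 (log2 fold change -0.65) and not in HCC827 (0.11). Of the 10 protein-coding genes next to the span, 5 on each side, 6 were tested in EBC-1 and 4 were called, against 44.7% of all genes. Of these, the chemokine genes CXCL2 (-1.09) and CXCL3 (-0.30) fell, and CXCL5 (0.71) and the ubiquitin ligase gene RCHY1 (0.40) rose. In HCC827, 4 were tested and called, against 38.0% of all genes, CXCL3 (-1.64), CXCL2 (-1.58) and CXCL5 (-0.72) downward and RCHY1 (0.36) upward. In PC-9, 2 were tested with limma and neither was called, with 1 at an unadjusted p under 0.05.

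The remaining family members were low. ERBB4, the receptor shared by neuregulins and several EGFR ligands, had at most 4 reads in any library, and NRG3 at most 1 read. EGF was highest in PC-9, at 0.671 to 0.885 FPKM in nc and 0.429 to 0.499 FPKM in shSYK. NRG4 had at most 13 reads. NRG2 was tested in EBC-1 alone, at 2.42, 1.82 and 2.74 FPKM in nc and 1.75, 1.57 and 1.82 FPKM in shSYK, which overlap by 1 nc library (log2 fold change -0.29, limma adjusted p = 0.0931).

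Around the receptors, 58 genes of 4 lists were counted. In EBC-1, 16 of the 55 tested rose and 11 fell. In HCC827, 9 of 55 rose and 15 fell, and in PC-9 1 of 53 fell, CCND1, against 1.41% of all genes. Over all genes 44.7%, 38.0% and 2.09% were called in EBC-1, HCC827 and PC-9, and no list was tested as a set. Of the 9 genes of ligand release, 2 rose and 1 fell among 8 tested in EBC-1, 2 rose and 3 fell in HCC827 and none was called in PC-9 by limma or limma-voom, where none had an unadjusted p under 0.05. The HCC827 count of this list went from 5 to 2 with length and GC trends removed. ADAM10, a protease that releases EGF and BTC, rose in EBC-1 (5.22 ± 0.793 to 8.38 ± 0.496 FPKM, SD, n = 3, log2 fold change 0.60, limma adjusted p = 0.00326) and in HCC827 (3.77 ± 0.247 to 5.21 ± 0.267 FPKM, log2 fold change 0.38, limma adjusted p = 0.00531). FRMD8, which stabilises the iRhom partners of ADAM17, fell in HCC827 (log2 fold change -0.56, limma adjusted p = 0.000573).

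Of 23 adaptors and effectors, 8 rose and 6 fell in EBC-1, and 2 rose and 4 fell in HCC827. Of all genes tested, 23.1% rose and 21.6% fell in EBC-1, and 17.2% rose and 20.7% fell in HCC827. None of 20 adaptors and effectors tested was called in PC-9 by limma or limma-voom, with 1 at an unadjusted p under 0.05. GAB1, a docking protein of EGFR and MET, rose in EBC-1 and HCC827 (log2 fold change 0.43 and 0.55, limma adjusted p = 0.0105 and 0.00246). MAPK3, which encodes ERK1, fell in both (log2 fold change -0.73 and -0.55, limma adjusted p = 0.000740 and 0.00114), as did the transcription factor gene STAT5B (-0.64 and -0.15, limma adjusted p = 0.00105 and 0.0476) and the kinase gene AKT2 (-0.31 and -0.20, limma adjusted p = 0.0169 and 0.0436). The HCC827 count of this list went from 6 to 3 in 8 alternatives, and the EBC-1 count from 14 to 9 without nc replicate 1.

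Of the negative regulators, 4 rose and 2 fell among 12 tested in EBC-1 (23.1% and 21.6% of all genes). In HCC827, 3 rose and 1 fell among 12 (17.2% and 20.7% of all genes). This HCC827 count went from 4 to 2 with a filter at 5 FPKM, 7 with length and GC trends removed and 8 with limma-voom. None of 13 was called in PC-9 by limma or limma-voom or had an unadjusted p under 0.05. The phosphatase genes PTPN12 and PTPN2 rose in EBC-1 (log2 fold change 0.58 and 0.53, limma adjusted p = 0.00710 and 0.00937) and in HCC827 (0.34 and 0.44, limma adjusted p = 0.00538 and 0.00416). RNF41, the ubiquitin ligase that targets ERBB3, fell in both (-0.42 and -0.31, limma adjusted p = 0.00336 and 0.00961). SOCS4 rose in EBC-1 (0.59, limma adjusted p = 0.0108) and LRIG3, of a family that restrains receptors, rose in HCC827 (0.52, limma adjusted p = 0.00555).

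Of 12 genes induced by receptor and ERK signalling, 2 rose and 2 fell in EBC-1, 2 rose and 7 fell in HCC827 and 1 fell in PC-9. The 4 called in EBC-1 stand beside 44.7% of all genes, and the 9 called in HCC827 beside 38.0%, with 20.7% of all genes falling there. With TPM, 7 were called in EBC-1. EGR1, an immediate early transcription factor, rose in EBC-1 from 2.71 ± 0.343 to 7.72 ± 0.634 FPKM (SD, n = 3, log2 fold change 1.24, limma adjusted p = 0.000170) and fell in HCC827 from 68.0 ± 9.18 to 27.5 ± 4.29 FPKM (log2 fold change -1.28, limma adjusted p = 0.000594). DUSP6, the ERK phosphatase, likewise rose in EBC-1 (0.49, limma adjusted p = 0.00213) and fell in HCC827 (-0.40, limma adjusted p = 0.0119). CCND1, which encodes cyclin D1, fell in PC-9 from 67.7 ± 3.59 to 46.8 ± 1.47 FPKM (log2 fold change -0.52, limma adjusted p = 0.0489) and in HCC827 from 106 ± 8.82 to 76.0 ± 5.29 FPKM (log2 fold change -0.47, limma adjusted p = 0.00420), while in EBC-1 the log2 fold change was 0.079 (limma adjusted p = 0.445). The PC-9 call held in 7 of 14 alternatives and was lost without nc replicate 3 or shSYK replicate 1, 2 or 3 (limma adjusted p = 0.245, 0.263, 0.252 and 0.224). IER3 fell in EBC-1 and in HCC827 (-0.37 and -1.14, limma adjusted p = 0.00974 and 0.000939). Differences between lines were not tested for the genes of these lists.

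Across the 18 libraries, with each line centred on its mean, log2(FPKM + 1) of EGFR and ERBB2 had a Pearson correlation of -0.92 and that of ERBB2 and ERBB3 0.85, while HBEGF and ERBB3 had -0.88. These points share the nc and shSYK groups and the scale of their libraries and are not independent. They also carry the trends of a library with gene length and GC. PC-9 nc replicates 1 and 2, which stood apart, were at 60.9 and 87.1 FPKM of EGFR and 27.8 and 17.6 FPKM of ERBB2. The part of these libraries and trends in the correlations was not tested. Among 4938 protein-coding genes with a mean of at least 5 FPKM in every line, the pattern most like that of EGFR was that of MACF1 (0.92), RAB5A (0.92) and CEP55 (0.91). ERBB2 was most like POFUT1 (0.98), ARAF (0.98) and ANXA11 (0.98), and ERBB3 most like ATP5J2 (0.97), ATXN1L (0.96) and PYM1 (0.96). AREG was most like SLC39A14 (0.97), HSPA5 (0.97) and HERPUD1 (0.96), and HBEGF most like TPM1 (0.97), PRSS23 (0.95) and SCD (0.94). TGFA was most like SERPINB1 (0.94), MED8 (0.88) and ERLIN1 (0.84), and BTC was close to SRSF5 (0.87) and SMARCA1 (0.85). EREG and NRG1, below a mean of 1 FPKM in PC-9, and EPGN were not searched.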

How the data were processed

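The authors extracted RNA with TRIzol, sequenced it on an Illumina HiSeq instrument and aligned the reads to hg38, and their processing notes name CASAVA and HISAT2 without versions. The counting program and annotation release are not given in the sources used here. The authors deposited FPKM, fragments scaled by gene length and library, in a table for each line, with no library left out. FPKM times gene length was a whole multiple of a single value in each library, which gave the reads per gene. No library was a copy of another of its group (chi-square per degree of freedom 2.11 to 38.66), and libraries of different groups were not compared in this way.

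log2(FPKM + 1) was compared between shSYK and nc in R 4.3.3 with limma 3.58.1 (variance trend, mean FPKM of at least 1, Benjamini-Hochberg adjusted p under 0.05 over all genes, two-sided), after tests on simulated data. The simulated libraries held no trends with gene length or GC, so these tests do not bear on calls that move with such trends. With 3 libraries against 3, an exact permutation test cannot go below 0.1. Effects were compared between lines in a fit of all 18 libraries, for genes tested within both lines. All members are named, of each list at most 5 genes (those called in 2 lines or more and the largest change called in each line), flanking genes if called, and the 3 most alike genes, of which 1 is not reported here. Members and lists were chosen with earlier results of these data known. Motifs were searched in Python 3.11.15. Alternatives were TPM, a pseudocount of 0.1, a higher filter (mean FPKM 5) or none, a replicate block, each library left out, the fit of all 18 libraries, limma-voom on recovered reads and, chosen after seeing the data, removal of trends on gene length and GC content (lowess, span 0.3).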

Additional observations from a re-analysis of the deposited data

Results flagged for a closer look

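Of 23 tests of a difference between lines in the log2 fold change of a member, 9 passed (limma, adjusted over all genes of a pair). Of all genes tested in both lines, 19.4% passed for EBC-1 minus PC-9, 20.7% for EBC-1 minus HCC827 and 6.43% for PC-9 minus HCC827. The size of each difference is the log2 fold change of the first line minus that of the second. SYK itself fell less in EBC-1 than in HCC827, and the part of this in the differences was not tested. AREG differed by -1.09 for EBC-1 minus HCC827. It differed by -1.35 for EBC-1 minus PC-9, on 13 to 26 reads of AREG per PC-9 library. In PC-9 it passed the filter through its shSYK libraries, so no support is drawn from that difference. NRG1 differed by -0.83 for EBC-1 minus HCC827. ERBB3 differed by 0.35 for EBC-1 minus PC-9, lost without PC-9 shSYK replicate 1 (limma adjusted p = 0.0514), and by 0.58 for EBC-1 minus HCC827. TGFA differed by -0.52 for EBC-1 minus PC-9, lost with TPM (limma adjusted p = 0.0547), and by 0.78 for PC-9 minus HCC827, where its values had opposite signs. HBEGF, higher in shSYK cells of all 3 lines, differed by -0.65 for EBC-1 minus HCC827, lost in 7 of 18 fits without a library (limma adjusted p up to 0.0959). BTC differed by -0.82 for PC-9 minus HCC827.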

How the results depend on the processing

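AREG in EBC-1 and ERBB2, ERBB3, HBEGF, BTC and NRG1 in HCC827 kept their direction and call under every alternative that gave a value. The number of members called in EBC-1, 2 as reported, was 1 without the filter, 4 with TPM and 5 with limma-voom, and 1 to 4 with a library left out. In PC-9 the number, 1 as reported, was 0 with a pseudocount of 0.1 or without the filter, 2 with a filter at 5 FPKM, with TPM or with limma-voom, 3 in the fit of all 18 libraries or with length and GC trends removed, and 0 to 2 with a library left out. The pathway genes called in PC-9, 1 as reported, were 0 with a pseudocount of 0.1 or without the filter, 3 in the fit of all 18 libraries or with length and GC trends removed, and 0 to 2 with a library left out. All genes called in PC-9, 253 as reported, were 47 without the filter, 480 with TPM, 1511 in the fit of all 18 libraries, 485 with limma-voom, 963 with length and GC trends removed, and 7 (without shSYK replicate 1) to 621 (without nc replicate 1) with a library left out. In EBC-1 a filter at 5 FPKM left 3579 calls of 5562, with 6847 genes tested.

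NRG1 in EBC-1, at a log2 fold change of 0.29 as reported, was 0.60 with limma-voom and -0.092 with length and GC trends removed. EGFR in EBC-1, at 0.21 as reported, was 0.060 with these trends removed and 0.32 with limma-voom (limma adjusted p = 0.455 and 0.0151). The other signs that turned were of log2 fold changes within 0.1 of 0. ERBB3 in EBC-1 was 0.029 with TPM, TGFA in EBC-1 0.097 with TPM and 0.058 with limma-voom, and AREG in HCC827 0.045 with TPM, 0.052 with limma-voom and -0.058 to 0.045 with a library left out. Of the differences between lines, HBEGF between EBC-1 and HCC827 was lost in 7 of 18 fits without a library (limma adjusted p up to 0.0959), TGFA between EBC-1 and PC-9 with TPM (limma adjusted p = 0.0547), and ERBB3 between EBC-1 and PC-9 without PC-9 shSYK replicate 1 (limma adjusted p = 0.0514). The cause of these shifts was not tested.

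The replicate numbers did not pair the samples, with correlations of same-numbered deviations from -0.219 to 0.325. With the numbers as a replicate block, 1 member was called in EBC-1 and 0 in PC-9, since HBEGF was lost in both (limma adjusted p = 0.0612 and 0.0690), 0 pathway genes were called in PC-9, since CCND1 was lost (limma adjusted p = 0.131), TGFA passed in HCC827 (limma adjusted p = 0.0346), and the ERBB3 difference between EBC-1 and PC-9 had a limma adjusted p of 0.0803. Depth limits AREG and BTC in PC-9, at 13 to 48 reads, and EPGN in all lines and EREG and NRG1 in PC-9 were under the filter and neither tested there nor compared with other lines.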
